A study of Mus musculus with 10 samples.

Results

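A set of 726 AHR peaks was defined by base composition among 123366 wild type (WT) peaks on chromosomes 1 to 19, X and Y. Members were WT peaks whose central 200 bp had a GC content of at least 55% and an observed/expected CpG ratio of at least 0.65, and whose midpoint lay outside promoters. Observed/expected CpG is the number of CpGs multiplied by the window length and divided by the product of the C and G counts. Promoters ran from 1000 bp upstream to 100 bp downstream of any transcript start in GENCODE release M21. In all, 899 WT peaks passed the composition rule, and 173 of these lay at promoters. The rule used sequence and position only, not a measured value.

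The aryl hydrocarbon receptor (AHR) was profiled by ChIP-seq in mouse colon organoids, which are epithelial cultures derived from stem cells of the colon. Both genotypes were grown in WENR medium to maintain stem-like cells and were exposed to FICZ, an AHR ligand, at 5 nM for 1 hour. WT organoids gave 4 ChIP and 4 input samples, which the authors merged into a single peak list. The paper counts somewhat fewer AHR-bound peaks than this list holds. It takes its targets from those in open chromatin, a limit that was not applied here. AHR KO organoids gave 1 ChIP and 1 input sample and a list of 1931 peaks, of which 1873 lay on the same chromosomes. The study's methods give biological replicates for both genotypes, but neither list holds a value per culture, so no difference between genotypes had a replicate check. Read depth per library was not analysed here, and the lists cannot be taken as equally deep.

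AHR is a ligand-activated transcription factor of the bHLH-PAS family that binds DNA together with ARNT. The pair contacts a short core, GCGTG, usually read within the longer word TNGCGTG, where N is any base, and the core holds a CpG. CpGs are scarce in the mouse genome except in CpG islands, most of which lie at promoters, so CpG-dense sequence away from promoters is uncommon. Simple repeats that mix CA and CG steps also hold many CpGs.

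The sequences of the members fell into 3 kinds, and the sequences below show each. The grouping was made after the windows had been seen, and it is a description. All are the central 200 bp in GRCm38, the same sequence as mm10, on the plus strand. Capitals mark the AHR core, GCGTG or its reverse complement CACGC, and neighbouring cores can share letters. In the last sequence capitals mark its CpG. Windows with 4 cores and little masked sequence are represented by chr13:74259950-74260149 in an intron of Ahrr, the AHR repressor and a classical AHR target, by chr3:65659361-65659560 in intergenic sequence, and by chr8:84986068-84986267 between genes. The tandem repeat is chr4:118547866-118548065. The array copy is chr6:47772223-47772422. The CA/CG repeats are chr10:59942441-59942640, the highest-scoring member, chr1:65886263-65886462, the member with most cores, and chr10:81169290-81169489, the highest-scoring member shared with the AHR KO list. The pyrimidine tract is chr14:88702877-88703076.
Ahrr intron: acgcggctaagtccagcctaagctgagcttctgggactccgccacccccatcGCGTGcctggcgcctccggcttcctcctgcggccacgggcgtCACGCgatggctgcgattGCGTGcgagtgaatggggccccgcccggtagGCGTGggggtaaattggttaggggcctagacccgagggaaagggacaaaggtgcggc
Chromosome 3 intergenic: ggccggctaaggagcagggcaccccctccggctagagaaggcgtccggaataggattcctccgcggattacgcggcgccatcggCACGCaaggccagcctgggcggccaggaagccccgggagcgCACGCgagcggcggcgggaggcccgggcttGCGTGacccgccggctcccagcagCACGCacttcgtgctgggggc
Chromosome 8 intergenic: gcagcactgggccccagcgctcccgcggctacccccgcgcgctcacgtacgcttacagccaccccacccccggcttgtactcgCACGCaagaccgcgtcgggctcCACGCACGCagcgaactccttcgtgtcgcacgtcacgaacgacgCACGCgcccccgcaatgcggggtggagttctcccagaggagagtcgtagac
Chromosome 4 tandem repeat: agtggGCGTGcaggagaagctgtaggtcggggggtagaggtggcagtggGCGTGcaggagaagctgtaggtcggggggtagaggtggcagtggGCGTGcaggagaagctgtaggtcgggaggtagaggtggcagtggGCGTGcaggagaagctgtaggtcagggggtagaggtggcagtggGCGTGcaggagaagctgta
Chromosome 6 array: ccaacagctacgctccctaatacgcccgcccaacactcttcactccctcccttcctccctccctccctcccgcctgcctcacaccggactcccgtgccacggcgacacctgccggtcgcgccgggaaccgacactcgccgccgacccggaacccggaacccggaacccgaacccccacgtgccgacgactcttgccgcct
CA/CG repeat, highest score: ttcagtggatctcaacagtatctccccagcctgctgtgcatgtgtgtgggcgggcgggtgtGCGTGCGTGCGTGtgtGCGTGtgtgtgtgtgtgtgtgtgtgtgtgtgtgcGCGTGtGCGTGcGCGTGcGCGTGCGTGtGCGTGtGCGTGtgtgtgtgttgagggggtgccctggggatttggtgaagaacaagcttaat
CA/CG repeat, most cores: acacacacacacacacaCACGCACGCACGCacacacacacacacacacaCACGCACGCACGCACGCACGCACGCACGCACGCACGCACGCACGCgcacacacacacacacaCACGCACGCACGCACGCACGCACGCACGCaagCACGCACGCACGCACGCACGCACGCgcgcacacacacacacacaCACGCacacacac
CA/CG repeat shared with AHR KO: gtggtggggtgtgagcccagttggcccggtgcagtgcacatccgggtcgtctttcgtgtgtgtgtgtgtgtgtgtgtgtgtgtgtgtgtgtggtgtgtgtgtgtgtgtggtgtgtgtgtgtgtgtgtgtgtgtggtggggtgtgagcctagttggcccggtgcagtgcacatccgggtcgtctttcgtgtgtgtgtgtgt
Pyrimidine tract: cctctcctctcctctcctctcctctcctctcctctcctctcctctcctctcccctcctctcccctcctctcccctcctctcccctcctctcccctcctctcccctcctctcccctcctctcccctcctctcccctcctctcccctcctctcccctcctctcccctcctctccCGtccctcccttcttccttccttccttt

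The name CpG-rich fitted the members only in part. CA/CG repeats, in which CACACA and TGTGTG together occurred 3 or more times without overlap, made up 509 of the 726 members. This criterion, called a CA run below, asks for no CG step within the repeat. The median window of the 509 held 14 CpGs, and the longest unbroken run of CG mixed with TG or CA steps had a median length of 64 bp. A further 180 members lacked such a run and had at least 80% purines on one strand. Their median window held 1 CpG. In 157 of these 180 either C or G made up under 5% of the window, so that very few CpGs were enough to reach the ratio of 0.65. The remaining 37 members had a median of 14 CpGs. Across all members 109 windows held 1 CpG, 144 held 1 or 2, and 473 held 10 or more.

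**Figure D1:**
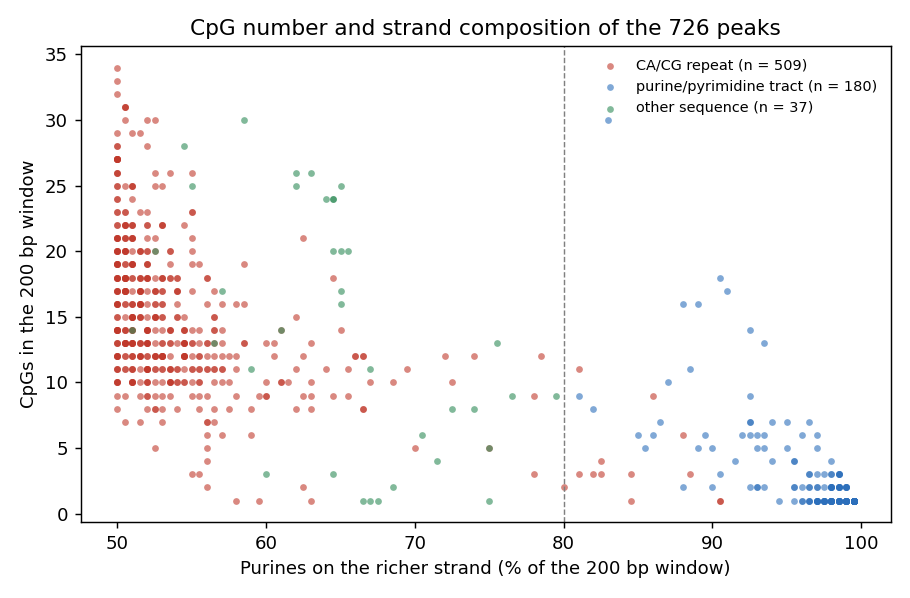
CpGs in the central 200 bp (y axis) against the share of purines on the purine-richer strand (x axis, percent) for each of the 726 peaks, coloured by sequence class, with a dashed line at 80%. CA/CG repeats sat near 50% purines with a median of 14 CpGs, and purine or pyrimidine tracts lay to the right with a median of 1 CpG.

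Most members were repeats in the genome sequence itself. The reference writes repeats in lower case (soft-masking), and this held for 50% or more of the window in 87.9% of members (95% Wilson interval 85.3 to 90.1). The share was 86.3% in the 118997 other WT peaks away from promoters, a difference of 1.56 percentage points (95% Newcombe interval -1.02 to 3.75). It was 39.3% in the 173 CpG-rich promoter peaks and 26.7% in 34276 CpG-rich tiles that touched no peak. These tiles were all non-promoter 200 bp pieces of the genome, laid end to end, that passed the same composition rule. Over their central 500 bp, 144 members (19.8%) passed the same GC and CpG limits. All intervals here cover counting error only. An identical stretch of 50 bp on either strand was shared with another member by 325 of the 509 CA/CG repeats, 89 of the 180 tracts and 25 of the other 37, so members are not independent sequences. How reads with several placements were treated was not given in the sources used here, and the part of mapping in these peaks was not tested.

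The AHR core was dense in the members, but the longer word was not. Both words hold a CpG and the rule chose windows for CpG, with a median of 12 CpGs in members against 1 in other peaks away from promoters, so a higher share than in those peaks is not independent of the rule. The core occurred in 490 of 726 windows, 67.5% (interval 64.0 to 70.8). It occurred in 17.2% of other peaks away from promoters, in 78% of CpG-rich promoter peaks and in 38.1% of CpG-rich tiles outside peaks. Of the 8582 CpGs in members, 4255 lay in a core, 49.6%, against 18.8%, 19.3% and 3.76% in those 3 groups. TNGCGTG occurred in 31 members, 4.27% (interval 3.02 to 6.0). It occurred in 2.82% of other peaks away from promoters (interval of the difference 0.199 to 3.18 points). The share of members was 13.6 points below that of CpG-rich promoter peaks, at 17.9% (interval of the difference -20.2 to -8.36), and 1.78 points below that of CpG-rich tiles outside peaks, at 6.05% (interval -3.05 to -0.0332). With both groups restricted alike, TNGCGTG was more common in members than in other peaks with a CA run (5.30% against 1.58%, interval of the difference 2.09 to 6.03), under 50% masked (10.2% against 2.09%, interval 3.38 to 16.2) and in the top 10% of scores (6.57% against 2.09%, interval 1.85 to 8.65). With at least 20% C and 20% G (8.04% against 5.77%) and under 25% masked (15% against 5.99%) the intervals of the difference held 0. Without a CA run the order turned, with 1.84% of 217 members and 4.47% of 51185 other peaks (interval -3.76 to 0.182). CpGs in a core made up 55.8% in members against 27.6% with a CA run, 28.5% against 11.2% with at least 20% C and 20% G, and 62.8% against 35.2% in the top 10% of scores. Without a CA run they made up 4.23% in members and 9.13% in the others, under 50% masked 15% and 17%, and under 25% masked 7.005% and 14.4%.

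Cores of the members seldom carried the T of the longer word. Only 40 of 4255 cores, 0.940%, were part of TNGCGTG, against 10.5% in other peaks away from promoters, 5.99% in CpG-rich promoter peaks and 10.6% in CpG-rich tiles. The base at the position of that T could be read inside the window for 4211 cores of the members and was G in 3924 of them, 93.2%. It was G in 63.0% of cores of the other peaks away from promoters and T in 10.6%. In CpG-rich promoter peaks it was G in 80.9% and T in 6.04%. G at this place is what a GTGCGTG repeat gives, as in the chromosome 10 sequence printed above.

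**Figure D2:**
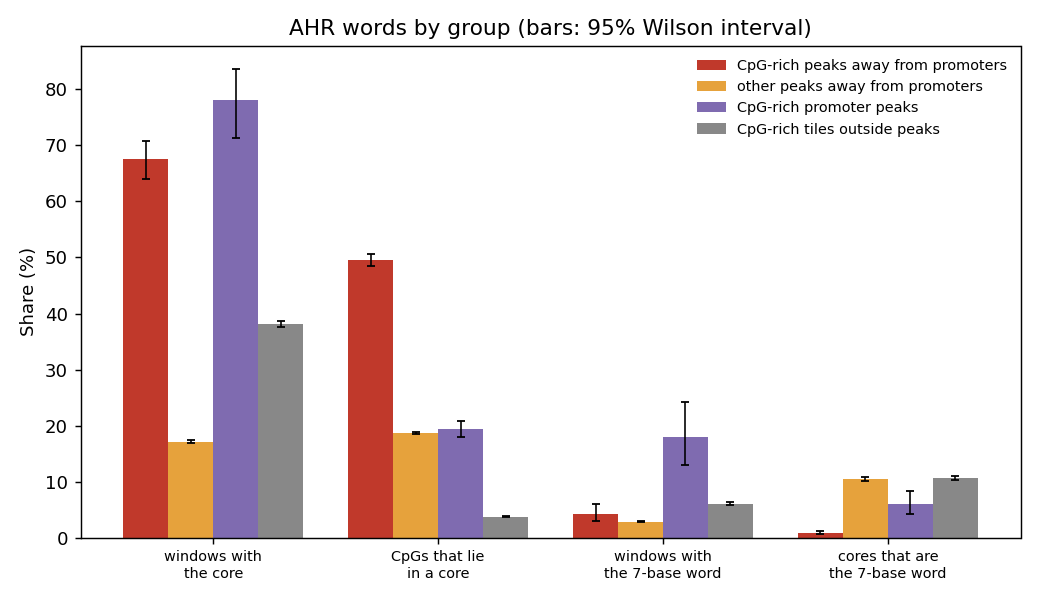
Shares in percent (y axis) of windows with GCGTG, of CpGs lying in that core, of windows with the 7-base word TNGCGTG and of cores that are part of it, in 4 groups, with 95% Wilson intervals. The members led in the share of CpGs in a core, at 49.6%, and were lowest in the share of cores that were the longer word, at 0.940%.

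The words split by class, which follows in part from how the classes were defined. A CG step within a CA or TG run spells the core. A tract with a median of 1 CpG has little room for a core. In CA/CG repeats 469 of 509 windows (92.1%) held a core and 27 held TNGCGTG. In purine or pyrimidine tracts 4 of 180 (2.22%) held a core and 1 held TNGCGTG. In the other 37 members 17 held a core and 3 held TNGCGTG. Genomic CA/CG tiles that passed the rule but touched no peak held a core in 80.8% of cases, and 25.6% of their CpGs lay in one, against 55.8% in the CA/CG members. The longer word was more common in those tiles, at 8.97% against 5.30% of CA/CG members, and 3.58% of their cores were part of it against 0.760%. Tracts outside peaks held a core in 2.67%. Among tiles outside both repeat classes the core share was 38.0%, against 45.9% in the other 37 members (interval of the difference -6.94 to 23.7).

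Cores were gathered at the peak midpoints. In the CA/CG members there were 52.9 cores per kb in the 50 bp before the midpoint and 47.4 in the 50 bp after it, falling to 0.629 and 0.904 per kb in the outermost 50 bp bins, which ended 500 bp away. The other peaks away from promoters had 1.68 and 1.71 per kb beside the midpoint. In the 37 other members the density was 5.95 per kb in both bins beside the midpoint and was exceeded in some bins further out. The windows were chosen for their central CpG content, so the rise itself follows in part from the rule.

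**Figure D3:**
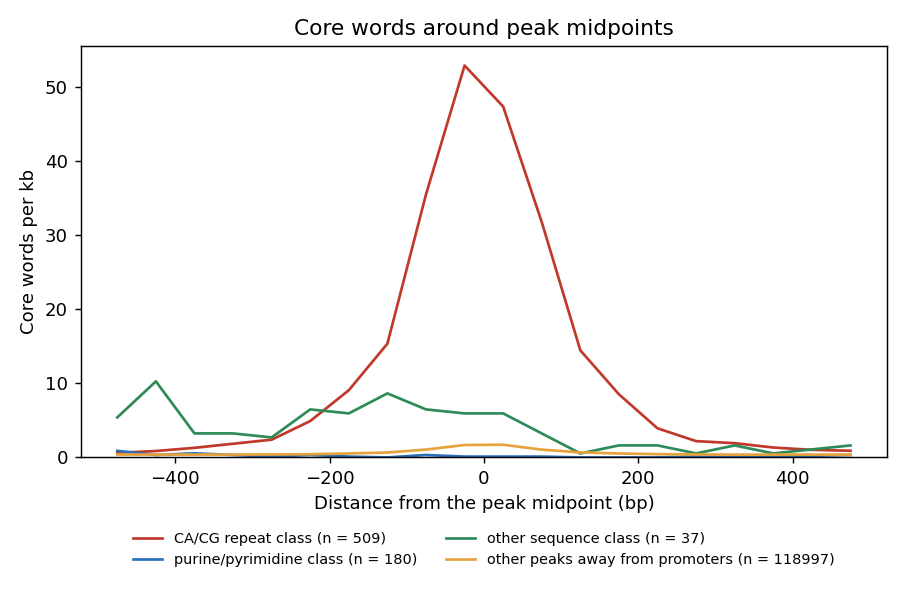
Cores per kb (y axis) in 50 bp bins by distance from the peak midpoint in bp (x axis) for the 3 classes and for other peaks away from promoters. The CA/CG line reached 52.9 per kb beside the midpoint, and the line of the purine or pyrimidine class stayed under 1 per kb.

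Words for other factors were also counted on both strands. The TEAD word GGAATG, read by the partners of Yap, occurred in 3.31% of members, 3.99 points fewer than in other peaks away from promoters (interval -5.07 to -2.42). The AP-1 words TGACTCA and TGAGTCA, read by Fos and Jun, occurred in 4 members, 0.551%, against 1.27%, and the interval of that difference ran from -1.06 to 0.140. The E-box CACGTG, read by many bHLH factors, was present in 9.37% against 2.19%, with 4.496% in CpG-rich tiles outside peaks and 5.20% in CpG-rich promoter peaks. Within the CA/CG class it was present in 11.6% of members and 14.7% of tiles outside peaks. ACGTG, the word of hypoxia factors that also pair with ARNT, was present in 17.1% against 6.24%, but in 19.4% of CpG-rich tiles (interval of the difference -4.89 to 0.646 points) and 20.8% of CpG-rich promoter peaks, and it lies within the E-box. The ETS word CCGGAA was present in 2.20% against 0.505%, but in 11.3% of CpG-rich tiles (interval of the difference -9.998 to -7.70 points) and 6.36% of CpG-rich promoter peaks. The GC box GGGCGG, read by Sp and Klf factors, was present in 5.92% of members against 1.16% of other peaks away from promoters, but in 39.3% of CpG-rich promoter peaks and 38.1% of CpG-rich tiles. A word match is a description and not evidence of a bound factor.

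Across the genome, peaks covered CpG-rich CA/CG repeats and tracts far more often than CpG-rich sequence without either, which can still hold other repeats. Outside promoters, 546 of 1170 CpG-rich CA/CG tiles (46.7%, interval 43.8 to 49.5) were touched by a WT peak, as were 253 of 853 CpG-rich purine or pyrimidine tiles (29.7%). Of 33270 other CpG-rich tiles 213 were touched, 0.640% (interval 0.560 to 0.732). That was below the 1.32% of 12233727 tiles that had no CA run or tract and were not CpG-rich. Tiles with a CA run and tract tiles that failed the rule were touched in 23.9% and 22.8% of cases. Of these 417309 CA-run tiles 346479 held no core, so they are not to be read as mixed CA/CG sequence. The AHR KO list touched 4.70%, 0.234% and 0.0331% of the 3 kinds of CpG-rich tile, in the same order. A peak can touch neighbouring tiles, so tiles are not independent.

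WT coverage of CA/CG repeats went up with the number of cores. Among CpG-rich CA/CG tiles, WT peaks touched 25.5% of 161 tiles with no core (interval 19.4 to 32.7), 26.1% of 306 with 1 or 2, 38.4% of 245 with 3 to 5, 61.3% of 186 with 6 to 9, 73.1% of 171 with 10 to 14, and 91.1% of 101 with 15 or more (interval 83.9 to 95.2). The list from the AHR KO organoids touched 3.11%, 0.980%, 1.63%, 2.69%, 11.7% (interval 7.70 to 17.4) and 17.8% (interval 11.6 to 26.4) of the same tiles, and its share was above that at no core only from 10 cores on. The intervals of the highest core number lay above those of no core in both lists. In tiles with a CA run that failed the rule, WT peaks touched 23.3% of 346479 tiles with no core, 25.7%, 33.2%, 49.5% and 50.9% in the next 4 steps, and 6 of 11 with 15 or more. The AHR KO shares of those tiles were 0.825%, 0.939%, 1.47% and 3.85% up to 9 cores, then 1.69% of 177 tiles with 10 to 14 (interval 0.578 to 4.86) and 0 of 11. The interval at 10 to 14 cores holds the 3.85% of the step before, and the interval of the 11 tiles reaches 25.9%. Whether the AHR KO share of these tiles went on rising cannot be told. Masked sequence moved with the core number, from a median of 38.5% of the tile at no core to 100% at 15 or more, and so did the median number of CACACA or TGTGTG copies, from 6 to 14. Within tiles under 50% masked, peaks of either list touched 20.0% of those with up to 5 cores and 26.8% of those with 6 or more, with overlapping intervals. From 50% to under 75% masked the shares were 38.6% and 53.0%, with overlapping intervals. At 75% masked or more they were 50.8% (interval 42.1 to 59.5) and 91.4% (interval 87.5 to 94.2). The part of repeat length in the relation was otherwise not tested.

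**Figure D4:**
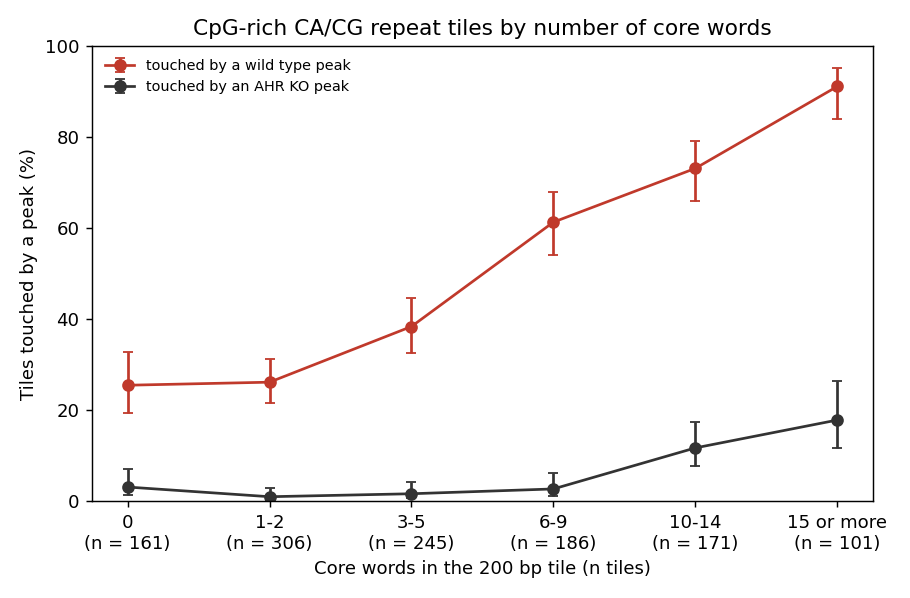
Percent of CpG-rich CA/CG repeat tiles away from promoters that were touched by a WT peak or by an AHR KO peak (y axis), by the number of GCGTG cores in the tile (x axis), with 95% Wilson intervals. WT coverage went from 25.5% without a core to 91.1% with 15 or more, and AHR KO coverage was 3.11% without a core, lower up to 9 cores and 17.8% with 15 or more.

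Scores were highest in the CA/CG class. The score is the fold enrichment deposited by the authors for each peak. Its median was 5.92 over all members (quartiles 4.93 and 7.46), against 5.32 over other peaks away from promoters (quartiles 4.53 and 5.98) and 6.63 over CpG-rich promoter peaks. By class the medians were 6.61 in CA/CG repeats, 4.98 in purine or pyrimidine tracts and 4.21 in the other 37. Within the CA/CG members the median was 5.98 without a core and with 1 or 2 cores, 6.20 with 3 to 5, 6.31 with 6 to 9, 6.98 with 10 to 14 and 7.87 with 15 or more. Median peak width was 264.5 bp without a core, 236.5 bp with 1 or 2, 245 bp with 3 to 5 and 256 bp with 6 to 9. It was 339 bp with 10 to 14 and 369 bp with 15 or more. Score went with width (Spearman's rho = 0.66 across the 509 peaks, which share libraries and repeat sequence). Score and core number had a rho of 0.26 in these peaks. In the 67812 other CA-run peaks away from promoters, which failed the composition rule, it was 0.02.

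**Figure D5:**
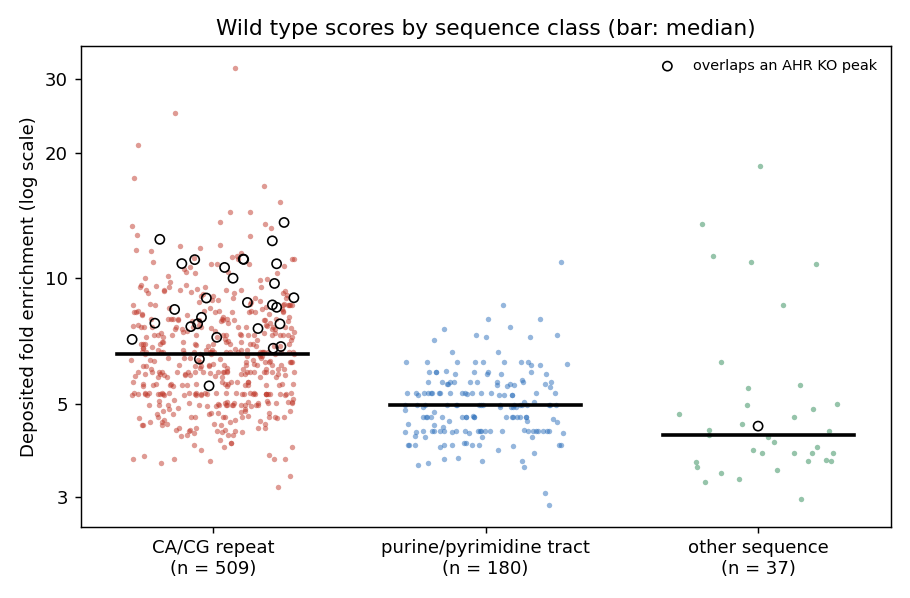
Deposited fold enrichment of each member (y axis, log scale) by sequence class, with bars at the medians of 6.61, 4.98 and 4.21 and open circles for members that overlap an AHR KO peak. Of the 30 circled peaks 29 are CA/CG repeats, and 83.7% of all AHR KO peaks held a CA run.

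Members were found more often in the AHR KO list than other peaks. By at least 1 bp, 30 of 726 members (4.13%, interval 2.91 to 5.84) overlapped an AHR KO peak, where 1.46% of all WT peaks did. The share was 1.44% for other peaks away from promoters, a difference of 2.69 points (interval 1.46 to 4.39). It was 4.05% for CpG-rich promoter peaks, with a difference of 0.0860 points (interval -4.16 to 2.77). By class 29 of the 30 were CA/CG repeats, 5.70% of that class (interval 4.00 to 8.06). The AHR KO list as a whole was rich in CA runs, with one in 83.7% of its 1873 peaks. The share was 70.1% in members and 57.3% in all WT peaks. With the same restriction on both groups, members with a CA run overlapped more often than other peaks with one, at 5.70% against 2.13% (interval of the difference 1.86 to 5.93 points). Without a CA run the share was 0.461% of 217 members and 0.533% of 51185 other peaks (interval -0.458 to 2.03). With at least 20% C and 20% G it was 0.893% of 112 members against 0.136% (interval 0.0207 to 4.75). Under 50% masked it was 1.14% of 88 members against 0.387% (interval -0.192 to 5.77), and under 25% masked 5% of 20 members against 1.55% (interval -0.970 to 22.1). In the top 10% of scores it was 11.7% of 213 members against 8.81% of 11673 other peaks (interval -0.767 to 7.97). None of the 180 tracts overlapped, which allows a share of up to 1.67%, and 1 of the other 37 did. The overlap in CA/CG members was 7.50% of 40 without a core (interval 2.58 to 19.9), 1.22% of 82 with 1 or 2, 0 of 81 with 3 to 5, 4.12% of 97 with 6 to 9, 8.26% of 121 with 10 to 14 and 12.5% of 88 with 15 or more (interval 7.13 to 21). The intervals at no core and at 15 or more overlap. In the AHR KO list itself 23 peaks met the rule, 21 of them CA/CG repeats, and 20 of the 23 overlapped a member. Absence from the AHR KO list is no measure of dependence on AHR, since the lists may differ in depth.

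The 10 members shared with the AHR KO list that had the highest scores were all CA/CG repeats, with scores from 10.0 to 13.6 in WT, and 8 of them held a core. None of the 10 held TNGCGTG, against a share of 4.27% over all members. The 10 lay in introns of Tex2, Osbpl10 and Arid5b, the last a chromatin-binding factor, in an exon of Shq1, an assembly factor of small nucleolar ribonucleoproteins, and in 6 intergenic places. The Tex2 peak (chr11:106584073-106584719) held 19 cores in its window, the Arid5b peak (chr10:68224895-68225810) 20, and the intergenic peak 1467 bp upstream of Pias4, a SUMO ligase, none.

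The 10 highest-scoring members had scores from 13.6 to 31.9, and all held a core while none held TNGCGTG or overlapped an AHR KO peak. CA/CG repeats made up 9 of the 10. The highest (chr10:59942325-59942757) scored 31.9, ranked 11 among all WT peaks and had 11 cores. It lay 9293 bp downstream of the start of Ddit4, a stress-induced inhibitor of mTORC1. The next scored 24.9 in an intron of Itga6, a laminin-binding integrin, with 4 cores (chr2:71813125-71813502). A peak in an intron of Rbms3, an RNA-binding protein, scored 20.8 with 14 cores. A peak 53547 bp past the start of Fos, an AP-1 subunit, had 10 cores. The one that was no CA/CG repeat (chr5:118465126-118465540) scored 18.6 with 4 CpGs and 1 core.

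Few members were CpG-rich without being repeats. Only 19 were under 25% masked and free of a CA run, and 15 of those lay in 1 tandem array on chromosome 6, described next. The other 4 are the first 4 sequences printed above. The intergenic chromosome 3 peak (chr3:65659258-65659663) scored 13.5, with 25 CpGs and 4 cores, 3 of them TNGCGTG. It lay 6767 bp upstream of Lekr1. The Ahrr peak (chr13:74259914-74260186) scored 11.0, with 20 CpGs and again 4 cores, of which 3 were TNGCGTG. It lay 32281 bp into Ahrr. These were the only members with 3 copies of the longer word. The chromosome 8 peak, 4435 bp upstream of Hook2, scored 4.49 with 28 CpGs, 4 cores and 1 longer word. The chromosome 4 peak, 3922 bp upstream of Tmem125, scored 4.43 and was 1647 bp wide, with 5 cores in near-identical copies. It was the only one of the 19 to overlap an AHR KO peak.

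The array on chromosome 6 had Ezh2 and Pdia4 as the protein-coding genes with the nearest starts. It held 20 members with midpoints from 47655375 to 47772323, of which 17 had 10 or more CpGs, and neighbours among these 17 were a median of 4370 bp apart. RefSeq places Rn4.5s, a gene for the 4.5S RNA of rodents, at chr6:47654921-47655094, just before the first of them. The members shared sequence, since 19 of the 20 had an identical 50 bp stretch in common with another member. Their scores were low, from 2.97 to 6.87 with a median of 3.83. The core was found in 8 of 20, TNGCGTG in none, and 1 of 20 overlapped an AHR KO peak. Over all members these shares were 67.5%, 4.27% and 4.13%. A further 43 WT peaks that did not meet the rule lay in the same array, and 5 of the 43 were shared with the AHR KO list. The number of array copies in the organoids' genome was not measured here.

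By position, 378 members lay in introns, 328 between genes and 20 in exons. Intergenic position was less common than among other peaks away from promoters, at 45.2% against 56.6% (interval of the difference -15.1 to -7.81 points). Introns were more common, at 52.1% against 42.4% (interval 6.04 to 13.3), as were exons, at 2.75% against 0.982% (interval 0.807 to 3.24). CpG-rich tiles outside peaks lay in exons in 37.1% of cases. The exonic members were CA/CG repeats in 19 of 20 cases. The median distance to the nearest protein-coding start was 42682 bp, and 154 members lay within 10 kb of one. Members fell in 351 different protein-coding genes, 17 of which held at least 2. Every chromosome had members, from 6 on Y and 9 on X to 58 on chromosome 1, which was between 0.464% and 0.870% of its peaks.

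Genes were examined in 7 lists with 119 genes in all. A member lay in or within 10 kb of 7 of these, 5.88%, where 2.36% of all 21911 protein-coding genes had one. Classical AHR targets had 2 of 10, Ahrr and Cyp1a1. Wnt pathway genes had 1 of 21, Lef1. Yap/Tead and fetal-like genes had 1 of 19, Nrp2, and intestinal differentiation genes had 2 of 24, of which Klf5 is described here. Homeobox clusters had 1 of 22, Hoxb3. None of 12 AHR partners and bHLH-PAS factors and none of 11 intestinal stem cell genes had one. These counts are small, gene length was not matched, and nothing particular to a list is read from them.

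Of the listed genes described here, only Ahrr had a member with the longer word. The member near Cyp1a1, the AHR-induced enzyme that clears AHR ligands, was a CA/CG repeat with 22 CpGs, 3 cores and a score of 7.62. It lay 20999 bp downstream of the Cyp1a1 start, in an intron of Edc3, an mRNA decapping factor, and 387 bp past the Edc3 start, which was the nearest protein-coding start. The member at Hoxb3, a homeobox factor of axial patterning, scored 9.45 with 3 cores, 6387 bp into the gene. At Lef1, a transcription factor of Wnt signalling, the member scored 4.57 in an exon, 118 bp past the gene start and thus just outside the promoter limit, with 12 CpGs and no core. At Nrp2, a co-receptor of semaphorins, it scored 4.49 with no core. The member 8410 bp upstream of Klf5, a factor of epithelial proliferation, scored 3.61 with 1 CpG and no core. None of the 7 overlapped an AHR KO peak. Since 4.13% of all members and 1.46% of all WT peaks did, none among so few says little about these genes.

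Values of members just inside the limits of the rule were set beside those of peaks just outside. At exactly 55% GC there were 76 members with a median score of 5.98 and a core in 85.5%, and 84 peaks outside at 54.5% had 5.74 and 83.3%. With an observed/expected ratio from 0.65 to under 0.70 there were 39 members with a median score of 5.30 and a core in 76.9%, and the 50 peaks outside, from 0.60 to under 0.65, had 5.29 and 54%.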

How the data were processed

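AHR ChIP-seq of FICZ-treated colon organoids was analysed from 2 deposited peak lists, WT (4 ChIP and 4 input samples merged) and AHR KO (1 and 1). Per the paper's methods and the submitters' processing notes, the authors aligned reads to mm10 with BWA 0.7.15, marked duplicates with Picard 2.1.1 and called peaks with MACS2 2.1.1 against input; HOMER 4.8 is also named. Scores in the deposited lists are fold enrichments, each the ratio of ChIP to background signal, and were used as given. No read counts or depth were used, so intervals cover counting error over peaks or tiles only. Starts were read as counted from 1, since 9 peaks over both lists started at 1 and none at 0.

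Windows were read from GRCm38.p6 with Python 3.11.15, pandas 2.3.3 and SciPy 1.17.1. Peaks on other sequences (286 WT, 58 AHR KO) were left out. Words were counted on both strands. The genome was divided into 200 bp tiles free of N, of which 12761848 lay outside promoters. Shares have 95% Wilson intervals and differences 95% Newcombe intervals, and no test was run across peaks, which are not replicates. Limits for a count of 0 use 3 counts. Named peaks were the 10 highest-scoring members, the 10 highest under 25% masked without a CA run, the 10 highest shared with the AHR KO list, and the best member for each listed gene. The member at 1 listed gene is not reported here. The members, lists and alternatives were chosen with earlier results of these data known. The scripts were tested on simulated data. The closing section gives the alternatives.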

Additional observations from a re-analysis of the deposited data

How the results depend on the processing

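In all 90 recalculations were made, and 37 stayed inside the 95% interval of the value reported, or within 1.5 times it for gene counts, while 53 moved. These are shares, medians and counts with no sign of their own, but comparisons with other peaks away from promoters turned under some settings. With both groups restricted alike, a choice made after the data had been seen, members without a CA run were below the others in overlap with the AHR KO list (0.461% and 0.533%), TNGCGTG (1.84% and 4.47%) and CpGs in a core (4.23% and 9.13%). The intervals of the first 2 differences held 0, and that for CpGs in a core ran from -5.98 to -3.49 points. Under 50% masked, CpGs in a core turned too (15% and 17%), with an interval that held 0 (-3.91 to 0.0484). Under 25% masked, 20 members were below the others in CpGs in a core (7.005% and 14.4%) and median score (3.86 and 5.27), and above them in intergenic share (90% and 50.3%). The share of windows masked by 50% or more, close in both groups, was lower in members without a CA run (90.3% and 97.4%) and with at least 20% C and 20% G (56.3% and 93.9%). In the top 10% of scores it was 90.1% and 90.3% (interval of the difference -4.95 to 3.19). Members were mainly repeats, and most of their shares and medians shifted when repeats were left out. The overlap with the AHR KO list under 25% masked, at 5% of 20 members, counted as the same. The settings of 10 or more CpGs, of leaving out the chromosome 6 array and of starts counted from 0 were added after the data had been seen. Counted from 0, the rule gave 727 members, 716 of them shared with those reported, and no share or median recalculated in this way moved. The gene counts were not recalculated from 0.

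The share of members with TNGCGTG (4.27%) became 1.84% without a CA run, 2.34% in the central 100 bp, 6.13% with 10 or more CpGs, 6.39% at a GC content of 60% or more, 6.57% in the top 10% of scores, 6.75% in the central 400 bp, 7.60% with the rule on 500 bp, 8.04% with at least 20% C and 20% G, 10.2% under 50% masked and 15% under 25% masked, where 20 members were left. With the core GCGTG in its place it was 67.5%.

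The share of CpGs in a core (49.6%) became 4.23% without a CA run, 7.01% under 25% masked, 15% under 50% masked, 28.5% with at least 20% C and 20% G, 39.1% with the rule on 500 bp, 43.3% at 60% GC, 48.3% at a ratio of 0.60, 48.4% at 50% GC, 51.4% at a ratio of 0.75, 51.6% without the array, 52.3% with promoters of 2 kb on both sides, 52.7% with 10 or more CpGs and 62.8% among the 10% with the highest scores.

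The overlap with the AHR KO list (4.13%) became 0.461% without a CA run, 0.893% with at least 20% C and 20% G, 1.14% under 50% masked, 7.60% with the rule on 500 bp and 11.7% among the 10% with the highest scores, where it was 8.81% for other peaks away from promoters (interval of the difference -0.767 to 7.97 points).

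The median score (5.92) became 3.86 under 25% masked, 4.93 without a CA run, 5.57 at 60% GC, 5.59 with at least 20% C and 20% G, 5.64 under 50% masked, 6.45 with 10 or more CpGs, 6.51 with the rule on 500 bp and, by construction, 8.52 in the top 10%.

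The intergenic share (45.2%) became 37.6% in the top 10% of scores, 38.6% under 50% masked, 39.3% with at least 20% C and 20% G, 41.5% with the rule on 500 bp, 49.8% with promoters of 2 kb, 50.4% when protein-coding genes only were counted, 55.3% without a CA run and 90% under 25% masked. The masked share (87.9%) became 56.3% with at least 20% C and 20% G, 68.4% with the rule on 500 bp, 81.7% at 60% GC, 83.1% with 10 or more CpGs, 90.1% in the top 10% and 91.8% with promoters of 2 kb. The 7 listed genes became 15 within 50 kb, where 5.27% of all protein-coding genes had a member, and 1, Ahrr, with members under 25% masked without a CA run, where 6 of 21911 did. The cause of these shifts was not tested.

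No paired analysis was possible because each list gives 1 merged value per peak, and for the same reason leaving out each culture in turn was not run. The AHR KO list rests on 1 ChIP sample by its labels, the depth of the libraries was not analysed here, and shared repeat sequence makes the intervals too narrow.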
